A study of Mus musculus with 4 samples.

Results

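The mevalonate arm of cholesterol synthesis was represented by 9 genes of the 32285 in the count tables: Acat2, Hmgcs1, Mvk, Pmvk, Mvd, Idi1, Fdps, Fdft1 and Sqle. They were chosen by gene symbol as enzymes of the route from acetyl-CoA to squalene epoxide, and all 9 were found. Their transcripts were counted in 4 prostate tumours by 3' single-cell RNA sequencing, in which molecules carry unique molecular identifiers (UMIs) so that copies made by PCR are counted once. UMIs were summed per mouse over each cell type and each epithelial state, and a level is given in CPM, the UMIs of a gene in that sum scaled to a total of 1000000. The alleles of the 2 PCSp mice included PB-Cre, Chd1L/L, SpopF133V and mTmG. Those of the 2 PSp mice included PB-Cre, SpopF133V and mTmG, so the floxed allele of the chromatin remodeller gene Chd1 set the groups apart. Mice of both groups were castrated at 9 months of age and the tumours were taken 1 month later. PB-Cre is a Cre recombinase under a probasin promoter, active in prostate epithelium, so the stroma and immune cells of a PCSp tumour are not cells in which Chd1 was to be deleted. All alleles other than Chd1L/L, the SPOP mutant among them, and castration were shared by both groups, and no tumour without them or from an intact mouse was analysed here.

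Cholesterol and the isoprenoids start from acetyl-CoA. The mevalonate arm joins acetyl-CoA units into mevalonate, phosphorylates and decarboxylates mevalonate into a branched building block, and couples these blocks into farnesyl diphosphate and then squalene. The genes of the arm are known targets of the sterol-sensing transcription factor SREBP2, which raises their transcription when membranes run low in cholesterol, and farnesyl diphosphate also feeds protein prenylation and ubiquinone. In prostate the pathway is known as a source of membrane lipid for growing cells and of precursors for steroids.

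The libraries held 6539 to 9656 barcodes and 66874620 to 90839725 UMIs each, and 26702 cells passed the filters, of which 12897 were epithelial-like. PCSp mouse 2 had the lowest median depth, 2289 UMIs per barcode against 3448.5 to 3757 in the other mice. Libraries shared 11 to 27 barcodes per pair. The labelled tissue held epithelial cells, and within them states were named from their markers as basal (Krt5, Krt14), Ltf luminal (Ltf, Sftpd), secretory luminal (Spink5, Cdhr1), gut-like (Reg1, Lgals4), luminal progenitor (Upk1b, Mmp7), cycling (Mki67, Top2a), urothelial and neuroendocrine. The largest Ltf luminal sub-cluster was also led by the interferon-induced genes Ifit2 and Rsad2 and by Ccl20, and a basal sub-cluster by the squamous genes Krt16 and Dmkn. Sub-clusters 0, 1, 6, 18 and 19 took no name. Chd1 in epithelial-like cells had 59.9 and 56.5 CPM in the PCSp mice, against 91.7 and 78.3 CPM in the PSp mice (-0.57 ± 0.09 on the log2 scale, SE, with an edgeR adjusted p of 0.352). The 3' tag of Chd1 can lie outside the floxed part, so transcripts of a deleted allele may still be counted.

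The members lie on 7 chromosomes of GRCm38 (mm10), by the GENCODE M21 annotation. Acat2, the cytosolic thiolase that joins acetyl-CoA units into acetoacetyl-CoA, lies at chr17:12942890-12960747 on the minus strand. Hmgcs1, the synthase that adds a further acetyl-CoA to give HMG-CoA, lies at chr13:119690379-119708260 on the plus strand. Mvk, mevalonate kinase, lies at chr5:114444269-114460591 on the plus strand. Pmvk, phosphomevalonate kinase, lies at chr3:89454541-89469013 on the plus strand. Mvd, the decarboxylase that makes isopentenyl diphosphate, lies at chr8:122433601-122443422 on the minus strand. Idi1, the isomerase that turns isopentenyl into dimethylallyl diphosphate, lies at chr13:8885501-8892451 on the plus strand. Fdps, farnesyl diphosphate synthase, lies at chr3:89093588-89101959 on the minus strand. Fdft1, squalene synthase, which commits farnesyl diphosphate to sterols, lies at chr14:63145150-63179578 on the minus strand. Sqle, squalene epoxidase, a flux-limiting enzyme, lies at chr15:59315077-59331192 on the plus strand. All 9 are protein-coding genes.

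Some members share sequence or space with other genes, which can move their counts. Of the 50-base words in the last 500 bases of its transcripts, Fdps shared 63.8% with Gm43738, a gene model that overlaps it on the same strand, and 44.9% with the pseudogene Gm3571, among others. Idi1 shared 43.2% with the pseudogene Gm13502, among others, and Acat2 shared 20.9% with Acat3. Acat3 is one of the counted genes, while these 2 pseudogenes and Gm43738 are not. The other 6 members shared none with any other gene. Fdft1 overlaps Ctsb over 774 bases and Hmgcs1 overlaps Gm48342 over 6190 bases, each on the opposite strand, and whether the counting used strand is not given in the sources used here. Values of Fdps, Idi1 and Acat2 are uncertain for this reason, and the shares do not measure by how much.

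The RefSeq promoter table of GRCm38.p6 matched 6 of the 9 members: Acat2, Hmgcs1, Mvk, Pmvk, Mvd and Idi1, while Fdps, Fdft1 and Sqle are named only. The 250 bases before the RefSeq start of 3 of them are shown because they differ in the letters known from SREBP2 target promoters. These are a sterol response element (TCACNCCAC) and the CCAAT box that binds NF-Y (CCAAT). Both strands were searched, and matches to these are in capitals. The windows lie at chr13:119690101-119690350, plus strand, for Hmgcs1, at chr5:114444019-114444268, plus strand, for Mvk, and at chr13:8885356-8885605, plus strand, for Idi1. The Idi1 window runs past 8885501, the GENCODE start of the gene, and its 2 CCAAT boxes lie between that start and the RefSeq start.
Hmgcs1: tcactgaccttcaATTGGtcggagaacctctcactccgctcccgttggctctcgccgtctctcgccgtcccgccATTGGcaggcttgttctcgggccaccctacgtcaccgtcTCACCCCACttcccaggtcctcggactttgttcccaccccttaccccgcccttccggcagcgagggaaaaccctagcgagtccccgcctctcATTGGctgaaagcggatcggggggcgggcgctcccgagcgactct
Mvk: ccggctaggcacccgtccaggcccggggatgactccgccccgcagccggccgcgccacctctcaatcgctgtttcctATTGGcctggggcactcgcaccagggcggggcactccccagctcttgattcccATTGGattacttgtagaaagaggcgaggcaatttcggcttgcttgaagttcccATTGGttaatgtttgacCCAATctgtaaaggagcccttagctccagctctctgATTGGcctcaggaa
Idi1: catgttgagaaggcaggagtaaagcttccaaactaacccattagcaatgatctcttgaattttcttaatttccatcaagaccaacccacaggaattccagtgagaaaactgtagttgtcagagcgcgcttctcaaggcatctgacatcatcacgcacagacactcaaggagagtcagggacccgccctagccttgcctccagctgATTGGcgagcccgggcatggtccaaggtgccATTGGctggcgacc
Hmgcs1 held the sterol response element TCACCCCAC with its first base at -137 from the start, and 3 CCAAT boxes. Among all 32851 mouse promoter windows, 1.05% held TCACNCCAC, 33.8% held at least 1 CCAAT box and 2.79% held 3 or more. Mvk held 5 CCAAT boxes, Idi1 and Mvd held 2 each, Pmvk held 1 in the first of its windows and Acat2 held none. A match describes the letters in the window and was not tested as a binding site.

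The arm was transcribed at different levels in the cell types of the tumour, and the epithelium was at the top of the 7 types with at least 30 cells in every mouse. The order below is over these 7, without the rarer glial cells and B and plasma cells, and the 89 glial cells had a higher mean sum than the epithelium. Summed over the 9 members, epithelial-like cells had 269 ± 24.6 CPM (SD, n = 4 mice), the next cell type, smooth muscle cells and pericytes, had 169 ± 46.5 CPM, and neutrophils had the lowest level, 60.4 ± 3.57 CPM. The 4 mice of epithelial-like cells, at 240 to 294 CPM, did not overlap those of smooth muscle cells and pericytes, at 117 to 214 CPM. Endothelial cells (121 ± 12.8 CPM), T and NK cells (118 ± 17.9), macrophages and monocytes (114 ± 8.03) and fibroblasts (106 ± 15.3) lay close together, and each overlapped its neighbour in this order. Neutrophils, at 56.4 to 64.3 CPM, lay below every fibroblast sum, of which the lowest was 88.7 CPM. In summed cells, fewer transcripts per cell and fewer cells of a high state cannot be told apart. The capture counts 3' tags, so no length was divided out and levels are compared between cell types for a gene, not between genes.

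**Figure D1:**
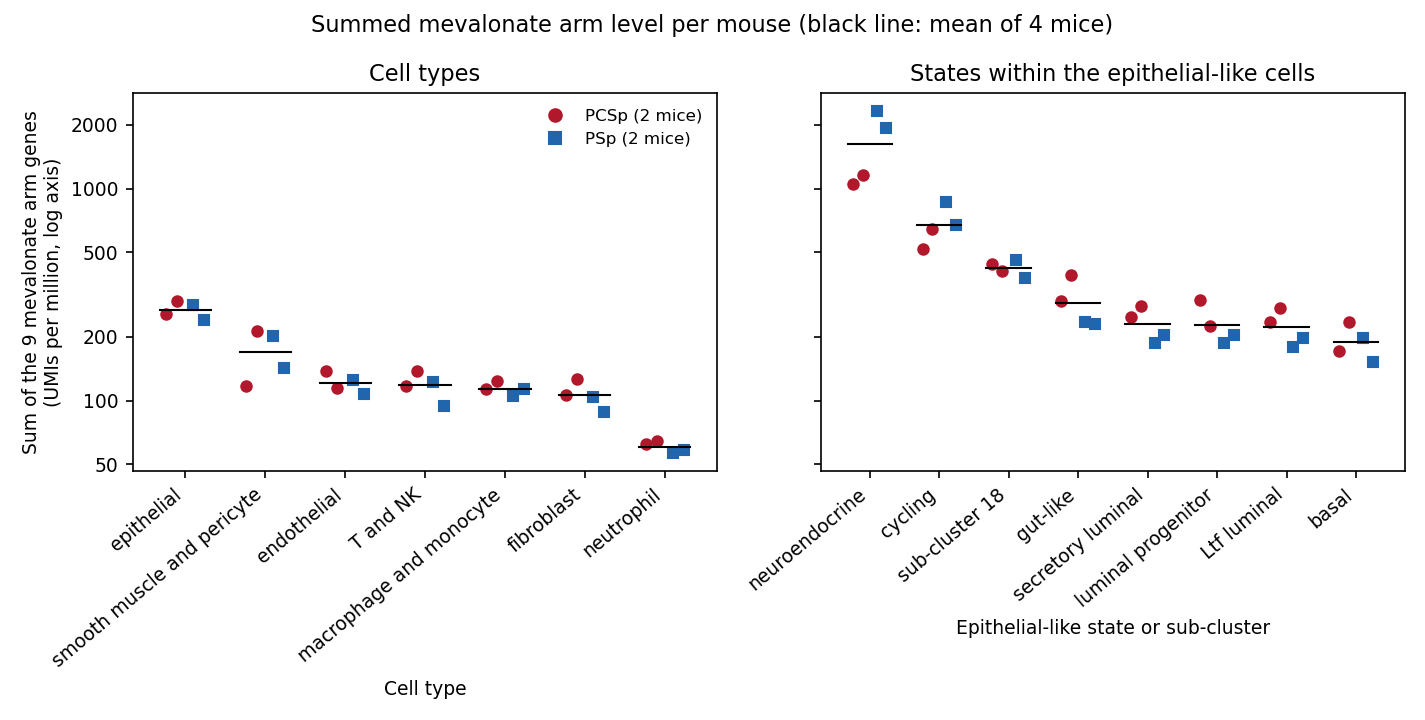
Summed level of the 9 members (CPM, log axis) in each mouse, by cell type (without glial cells and B and plasma cells) on the left and by epithelial-like state on the right, with PCSp mice as red circles, PSp mice as blue squares and a black line at the mean of 4 mice. Epithelial-like cells lie at 240 to 294 CPM, and within them neuroendocrine and cycling cells lie above the other states shown.

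Over the same 7 cell types the order differed between the members. Fdps had 60.8 ± 11.1 CPM in epithelial-like cells, and its 4 mice lay above all mice of the other 6 types, of which smooth muscle cells and pericytes came next at 24.8 ± 6.25 CPM. Fdft1 had 53.4 ± 4.30 CPM in epithelial-like cells and 10.1 ± 2.11 CPM in endothelial cells, the next in order. Sqle had 23.1 ± 3.17 CPM in epithelial-like cells and 10.7 ± 6.77 CPM in smooth muscle cells and pericytes. The last 3 enzymes of the arm thus had levels in the epithelium that overlapped none of these 6 types, while the ranges of the few glial cells overlapped them for all 3.

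The earlier enzymes did not show that order among the 7 types. Hmgcs1 was highest by its mean in smooth muscle cells and pericytes, at 51.1 ± 19.8 CPM, and its range there, 28.7 to 75.6 CPM, overlapped that of epithelial-like cells, 36.9 to 51.9 CPM. Pmvk had 33.0 ± 7.35 CPM in macrophages and monocytes, 32.4 ± 8.65 CPM in smooth muscle cells and pericytes and 30.1 ± 1.33 CPM in epithelial-like cells, 3 types whose mice overlapped. Acat2 and Mvk had their highest means in T and NK cells, 11.4 ± 4.03 and 12.2 ± 3.45 CPM, each overlapping the next type. Mvd was highest by its mean in neutrophils, at 8.73 ± 3.20 CPM, which overlapped the 5.62 ± 0.490 CPM of epithelial-like cells. Idi1 was highest in epithelial-like cells, at 32.3 ± 6.82 CPM, overlapping smooth muscle cells and pericytes at 24.6 ± 13.1 CPM, which came first when each cell had equal weight. Of the types left out of the order, glial cells had higher means than these for Hmgcs1 (214 ± 74.0 CPM), Idi1 (97.8 ± 80.9 CPM), Pmvk (49.5 ± 31.1 CPM) and Mvk (17.0 ± 13.6 CPM), and B and plasma cells for Acat2 (13.8 ± 2.64 CPM).

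RNA freed from broken epithelial cells can add UMIs to other cell types, and its upper bound was taken from the keratin genes Krt8, Krt18 and Krt19. In neutrophils the Fdps level of 4.31 CPM was 1.03 times the bound of 4.16 CPM, Sqle was 1.48 times and Idi1 1.82 times, so these 3 levels were read as near background there. Mvd in neutrophils was 22.1 times its bound. In smooth muscle cells and pericytes Fdft1 was 1.46 times its bound, and every other member there was at least 3.89 times. All members were at least 3.16 times their bound in macrophages and monocytes.

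Within the epithelium, cycling cells and the rare neuroendocrine cells had the highest levels of the arm. The orders given next are over the 10 states and unnamed sub-clusters with at least 30 cells in every mouse, and so leave out neuroendocrine and urothelial cells. The sum of the 9 members in cycling cells, 353 cells in all, was 675 ± 142 CPM (SD, n = 4 mice), against 423 ± 36.8 CPM in sub-cluster 18. This was an unnamed set of 432 cells with Ndufa4l2, the squamous gene Dmkn, Krt13, the basal gene Krt5 and Arg1 among its 10 leading genes. It met 8 of 8 interferon-high markers, with 0 of them among the 10. The lowest cycling sum, 518 CPM, lay above the highest of sub-cluster 18, 462 CPM. Gut-like cells followed with 288 ± 75.0 CPM, secretory luminal cells with 229 ± 42.0 CPM, luminal progenitor cells with 228 ± 48.5 CPM, Ltf luminal cells with 222 ± 42.1 CPM and basal cells with 189 ± 35.5 CPM. These 5 states overlapped one another in this order.

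Fdps, the enzyme that makes farnesyl diphosphate, was highest in cycling cells among these 10. It had 217 ± 56.0 CPM in cycling cells, 119 ± 19.6 CPM in sub-cluster 18 and 37.6 to 58.1 CPM on average in the other named states that were tested. Neither of the first 2 ranges overlapped the next. Idi1 had the same top, with 125 ± 34.0 CPM in cycling cells and 63.0 ± 12.0 CPM in sub-cluster 18, and both ranges stood clear of the next. Acat2 had 30.3 ± 9.44 CPM in cycling cells and 14.6 ± 3.42 CPM in sub-cluster 18. Mvd had 12.5 ± 3.82 CPM in cycling cells and 9.24 ± 0.805 CPM in sub-cluster 18, with no overlap between the 4 mice of each. For Hmgcs1, Mvk, Pmvk and Sqle the cycling mean was also the highest of the 10, at 88.2, 23.9, 65.5 and 56.5 CPM, but its range overlapped that of the next in order.

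Fdft1 did not follow the other members. Among the 10 it was highest by its mean in secretory luminal cells, at 78.7 ± 10.2 CPM, with luminal progenitor cells at 71.7 ± 10.6 CPM. The unnamed sub-cluster 1 had 71.3 ± 5.70 CPM and gut-like cells had 71.0 ± 11.9 CPM. These 4 ranges overlapped in this order, and sub-cluster 1 came first when each cell had equal weight. Cycling cells had 56.8 ± 6.51 CPM, and the 48.5 to 64.3 CPM of their mice lay below the 71.9 to 93.7 CPM of secretory luminal cells. Basal cells had the lowest level of the 10, 24.4 ± 5.52 CPM. By their means, basal, Ltf luminal, luminal progenitor and secretory luminal cells had the reverse order for Hmgcs1, with 45.8 ± 9.69 CPM in basal cells and 19.8 ± 6.49 CPM in secretory luminal cells, whose mice did not overlap. Gut-like cells did not keep to this reversal, since their Hmgcs1 mean, 50.4 ± 14.3 CPM, was above that of basal cells. The members and the other pathway lists were left out of the genes used for clustering, so their levels did not define the states directly, and no test was made between states.

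**Figure D2:**
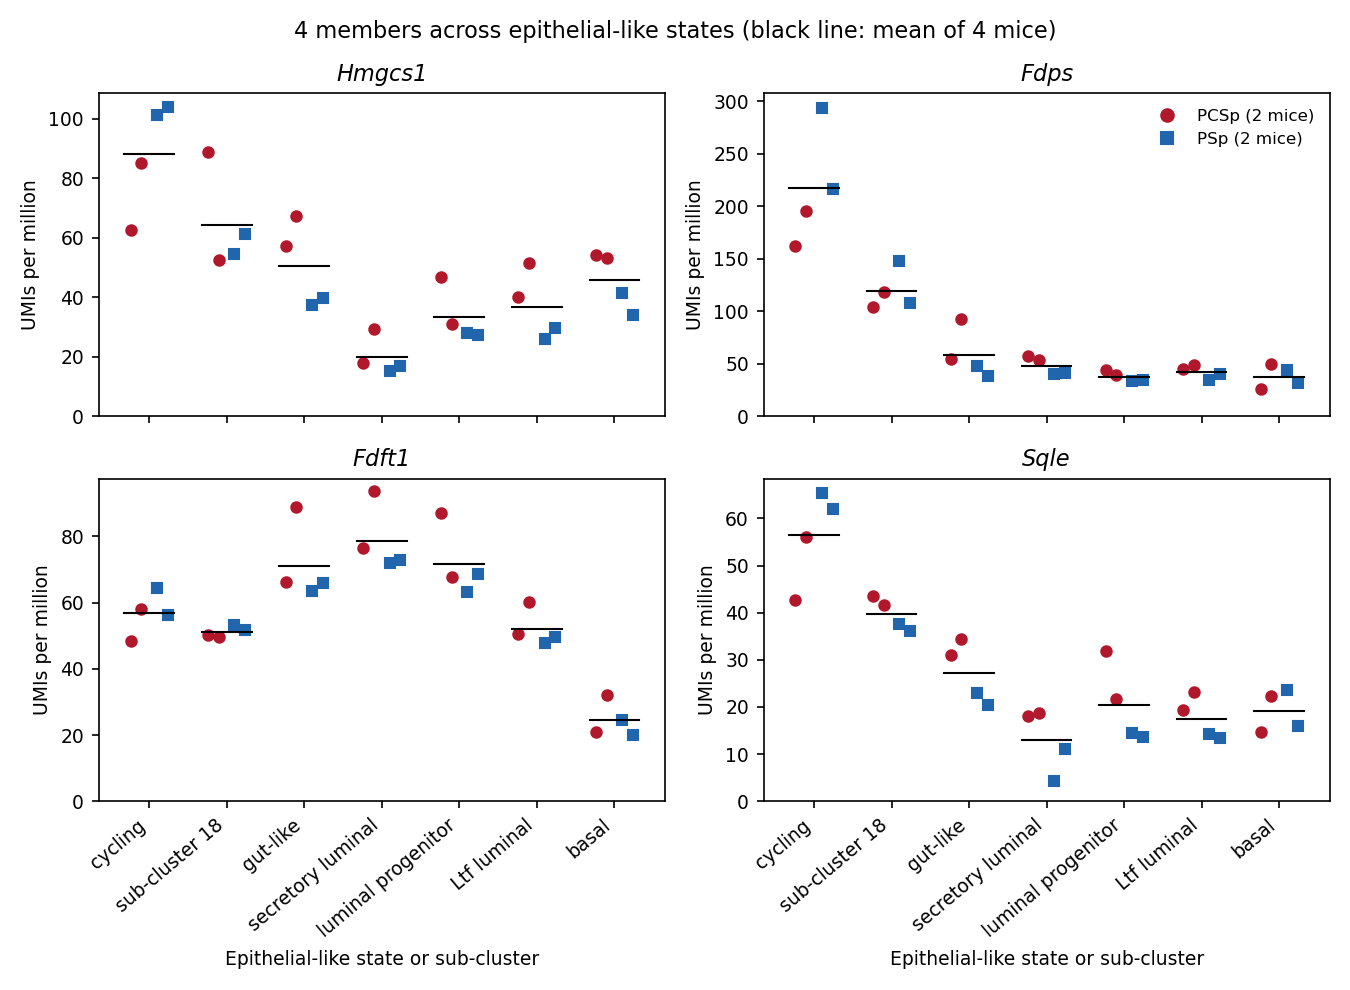
Levels of Hmgcs1, Fdps, Fdft1 and Sqle (CPM, axis from 0) in each mouse by epithelial-like state, with PCSp mice as red circles, PSp mice as blue squares and a black line at the mean of 4 mice. Of the states drawn, which leave out neuroendocrine cells, Fdps, Hmgcs1 and Sqle are highest in cycling cells, while Fdft1 is highest in secretory luminal cells at 78.7 CPM and lowest in basal cells at 24.4 CPM.

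Depth differed between states, and the order was looked at again after each cell was thinned to 1000 UMIs. A UMI of Fdps was then seen in 12.1% to 21.7% of cycling cells across mice, with 28 of their cells too shallow to be thinned, and without thinning in 62.5% to 72.4%. In gut-like cells the thinned share was 4.03% to 7.36%, in basal cells 2.62% to 4.28% and in Ltf luminal cells 2.36% to 4.27%. The share for Fdps was thus higher in cycling cells than in these 3 states at equal depth as well, and was 11.1% to 33.3% in the few neuroendocrine cells, overlapping cycling cells. Sub-cluster 18 was not thinned. For Fdft1 the thinned share was 3.80% to 6.06% in cycling cells and 5.36% to 12.7% in gut-like cells. In secretory luminal cells it was 3.17% to 8.67% and overlapped both. Some mice had few cells, such as 63 secretory luminal cells in PSp mouse 1 and 70 cycling cells in PCSp mouse 1. The shares thus cannot show whether the gap in Fdft1 between secretory luminal and cycling cells holds at equal depth. With each cell weighted equally, in place of CPM of the summed UMIs, cycling cells and sub-cluster 18 kept the first and second rank for the summed level.

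The 51 neuroendocrine cells, 7 to 23 per mouse, had 1618 ± 616 CPM for the sum of the 9 members, with 1047 and 1163 CPM in the PCSp mice and 2331 and 1929 CPM in the PSp mice. Pooled over mice, Fdps had 433 CPM there (exact Poisson 95% interval 396 to 471, counting error only) and Hmgcs1 had 345 CPM (312 to 380). By mouse, Fdft1 had 145 to 245 CPM there, above the range of secretory luminal cells, and each of the 9 members had a higher mean than in cycling cells. For the sum the PCSp mice were the lower pair without overlap, and with so few cells in a mouse the genotypes were not tested. The 89 glial cells had 534 ± 210 CPM for the sum, and Hmgcs1 alone had 229 CPM pooled (168 to 305). Mvd had 0 UMIs in the glial cells, which allows up to 14.6 CPM.

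Across cell types and states the members varied together to unequal degrees. Over 54 profiles from 14 cell types and states by mouse, Fdps had a Pearson r of 0.93 with the mean of the other 8 members, Idi1 0.83 and Sqle 0.80. Mvd had the lowest, 0.32. The median r of the 36 pairs of members was 0.68 over the 27 profiles of epithelial states and -0.0030 over the 27 of other cell types. Depth differed between these sets. Profiles held 213210 to 234990 UMIs in B and plasma cells and 238181 to 524166 in smooth muscle cells and pericytes. Those of epithelial states held at least 1822128, apart from urothelial cells with 395768 to 1709435. The part of depth in the lower r was not tested. Profiles of a mouse share its library, and the cycling profiles share high levels of many genes, so these values describe likeness and carry no test. Of 6265 genes with at least 20 CPM on average, the 5 outside the pathway lists most like the members' mean were Glrx5 (r = 0.87), Mrpl18 (0.86), Mrpl12 (0.85), U2af1 (0.85) and Eif3b (0.84). The pathway gene ranked nearest was Msmo1, a sterol demethylase subunit of the ring arm, at rank 95 with r = 0.77.

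Whether loss of Chd1 went with another level of the arm was asked first in epithelial-like cells as a whole. In these, 0 of 9 members passed edgeR's quasi-likelihood test at an adjusted p under 0.05, with 1 at an unadjusted p under 0.05, and DESeq2 called 0 members. Of all 16460 genes tested, 0% were called (1298 genes at an unadjusted p under 0.05, and 197 called by DESeq2). For 2 of 9 members both PCSp mice lay above both PSp mice, against 22.4% of all genes. The median log2 fold change of the members was 0.05, against -0.0072 over all genes. Cycling cells were 1.90% and 2.59% of epithelial-like cells in PCSp mice, against 3.50% and 3.22% in PSp mice. Sub-cluster 18 was 1.82% and 2.41%, against 6.21% and 3.61%, and neuroendocrine cells 0.626% and 0.353%, against 0.250% and 0.298%. With equal cell numbers per sub-cluster the members' median was 0.10. There edgeR called 0 members and 2 had an unadjusted p under 0.05, against 3 and 1614 of 15324 genes. The part of these shares in the result was not tested.

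Hmgcs1 had 47.7 and 51.9 CPM in PCSp epithelium, against 41.8 and 36.9 CPM in PSp epithelium. Both PCSp mice were above both PSp mice, with a log2 fold change of 0.32 ± 0.09 (SE, with an edgeR adjusted p of 0.532). Pmvk had 30.8 and 30.9 CPM in the PCSp mice, against 30.7 and 28.1 CPM in the PSp mice, a difference of 0.05 ± 0.08 on the log2 scale. The other 7 members overlapped between the groups, and the median of the 9 was -0.10 without PCSp mouse 2. Fdps had 50.5 and 64.4 CPM in PCSp mice and 74.8 and 53.6 CPM in PSp mice, and Idi1 had 29.5 and 38.0 CPM in PCSp mice and 37.9 and 24.0 CPM in PSp mice. For both genes the values of 2 mice of the same genotype differed by more than the means of the genotypes. Mvk, Acat2 and Fdps had negative log2 fold changes, of -0.10, -0.18 and -0.18.

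In gut-like cells 9 of 9 members had both PCSp mice above both PSp mice, against 13.4% of all 12063 genes tested. The median log2 fold change of the members was 0.65, with a range of 0.33 to 0.83, against -0.0094 over all genes. None of the 9 passed edgeR's adjusted threshold, 5 had an unadjusted p under 0.05, and 0.356% of all genes were called. DESeq2 called 1 member, Hmgcs1, at an adjusted p of 0.0387, and 100 of the 12063 genes. With no filter on low counts edgeR called 5: Hmgcs1, Pmvk, Idi1, Fdps and Sqle. That setting called 479 of 19789 genes, against 43 with the filter.

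In the first steps, Hmgcs1 had 57.4 and 67.2 CPM in PCSp gut-like cells, against 37.4 and 39.8 CPM in PSp gut-like cells. The groups did not overlap, and the log2 fold change was 0.75 ± 0.14 (edgeR adjusted p = 0.0962), a 1.69-fold higher level. Acat2 had 7.05 and 9.99 CPM in PCSp cells, against 6.93 and 5.93 CPM in PSp cells. Its lower PCSp value was almost level with the higher PSp value, and the counts behind it were 34 to 72 UMIs per mouse.

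Of the kinases and the decarboxylase, Pmvk had 30.5 and 32.9 CPM in PCSp gut-like cells, against 21.3 and 22.7 CPM in PSp cells. Its groups lay well apart, with a log2 fold change of 0.59 ± 0.14 (edgeR adjusted p = 0.218). Mvk had 8.59 and 11.8 CPM in PCSp cells, against 7.72 and 7.68 CPM in PSp cells. Mvd had 8.48 and 12.6 CPM in PCSp cells, against 5.36 and 8.20 CPM in PSp cells. For these 2 rare transcripts the gap between the groups was smaller than the distance between the PCSp mice.

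Among the later enzymes, Idi1 had 31.7 and 41.5 CPM in PCSp gut-like cells, against 21.4 and 22.0 CPM in PSp cells, a log2 fold change of 0.82 ± 0.18 (edgeR adjusted p = 0.171). Fdps had 54.4 and 92.0 CPM in PCSp cells, against 47.6 and 38.4 CPM in PSp cells, a log2 fold change of 0.83 ± 0.25 (edgeR adjusted p = 0.345). PCSp mouse 2 was high for Fdps, and without it the median of the 9 members was 0.37, against 0.65 with all mice, while without PCSp mouse 1 edgeR called Fdps at an adjusted p of 0.0482. Fdft1 had 66.2 and 88.8 CPM in PCSp cells, against 63.4 and 65.8 CPM in PSp cells, and had the smallest log2 fold change of the 9, 0.33 ± 0.17. Sqle had 31.0 and 34.4 CPM in PCSp cells, against 23.0 and 20.4 CPM in PSp cells, a log2 fold change of 0.65 ± 0.15 (edgeR adjusted p = 0.190).

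Other measures moved with genotype in the same cells. The 8 interferon-high markers summed to 464 and 397 CPM in PCSp gut-like cells, against 1761 and 1129 CPM in PSp gut-like cells, with none of them at 0 in any mouse. The median share of mitochondrial UMIs was 4.75% and 4.31% in PCSp cells, against 6.01% and 6.25% in PSp cells. Median depth was 18966 and 12777 UMIs in PCSp cells, against 4696.5 and 21861.5 in PSp cells, and did not separate the groups. The part of the interferon and mitochondrial differences in the result was not tested. The 9 cycling markers summed to 13.3 and 36.4 CPM in PCSp cells, against 23.8 and 9.57 CPM in PSp cells, and overlapped. Cycling cells had the highest summed level of the arm among the 10 states and sub-clusters ordered above, which leave out neuroendocrine cells.

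The gut-like state joined 3 sub-clusters. In sub-cluster 7, with 813 of the cells, 9 of 9 members again had both PCSp mice above both PSp mice, and Hmgcs1 had 57.3 and 67.4 CPM in PCSp cells, against 27.6 and 26.6 CPM in PSp cells. In sub-cluster 15, with 238 cells and a median of 1392 UMIs, 3 of 9 did, and 5 of 9 means were higher in PCSp mice. Sub-cluster 20 had 39 cells, 4 to 20 per mouse, and was not compared. With stricter limits on depth and mitochondrial share 7 of 9 members lay apart, and with each cell weighted equally 4 of 9 did, and in each case all 9 means were higher in PCSp mice. In Ltf luminal cells the same settings gave 7 of 9 and 8 of 9, and in secretory luminal cells each gave 5 of 9. For sub-clusters and for these settings, here and below, the share of all genes that lay apart was not computed. Such counts of members thus have no background to be read against.

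**Figure D3:**
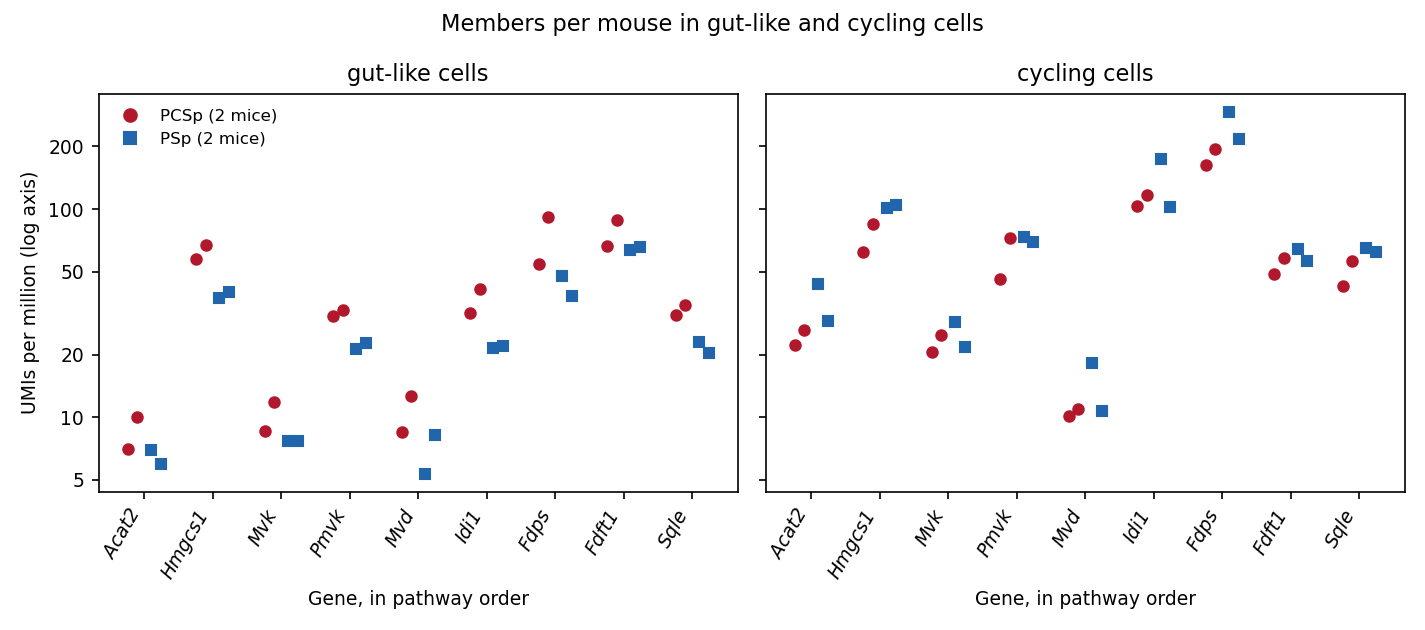
Level of each member (CPM, log axis) in each mouse in gut-like cells (left) and cycling cells (right), genes in pathway order, PCSp mice as red circles and PSp mice as blue squares. In gut-like cells both PCSp mice lie above both PSp mice for 9 of 9 members, and in cycling cells they lie below for 4 of 9.

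Ltf luminal cells, which carry secreted defence proteins such as lactoferrin, showed the same direction with smaller differences. Of the members 7 of 9 had both PCSp mice above both PSp mice, against 22.1% of all genes, and the median log2 fold change was 0.33. edgeR called 0 of 9, with 5 at an unadjusted p under 0.05 and 0.0155% of all genes called. DESeq2 called 1, Hmgcs1, at an adjusted p of 0.0494, and 116 of 12887 genes. Hmgcs1 had 40.2 and 51.4 CPM in PCSp cells, against 26.0 and 29.7 CPM in PSp cells, a log2 fold change of 0.69 ± 0.15 (edgeR adjusted p = 0.208). Idi1 had 23.6 and 37.1 CPM in PCSp cells, against 15.9 and 18.3 CPM in PSp cells, a log2 fold change of 0.78 ± 0.22 (edgeR adjusted p = 0.326). Sqle had 19.4 and 23.1 CPM in PCSp cells, against 14.3 and 13.4 CPM in PSp cells, a log2 fold change of 0.59 ± 0.13 (edgeR adjusted p = 0.217). All 3 lay apart between the groups, while Acat2 and Mvd overlapped. Without PCSp mouse 1 edgeR called Idi1 at an adjusted p of 0.0441, and without PSp mouse 2 it called Hmgcs1 at 0.0191. The median was 0.19 without PSp mouse 1.

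The 2 main sub-clusters of the Ltf luminal state held unequal shares of it in the 2 groups. Sub-cluster 2 held 206 of 520 and 182 of 422 cells in PCSp mice, against 275 of 430 and 259 of 424 cells in PSp mice, and sub-cluster 5 held most of the others. Within sub-cluster 2, 7 of 9 members had both PCSp mice above both PSp mice and 1 had them below. Within sub-cluster 5, 3 of 9 had them above. The sub-clusters differed in level. Summed over the 9 members, sub-cluster 2 had 193 and 225 CPM in PCSp mice, against 157 and 150 CPM in PSp mice. Sub-cluster 5 had 295 and 326 CPM in PCSp mice, against 220 and 316 CPM in PSp mice, and overlapped. The part of the unequal shares in the result was not tested. The interferon-high markers summed to 3221 and 2536 CPM in PCSp Ltf luminal cells, against 4201 and 5036 CPM in PSp cells, and their part in the result was not tested.

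In secretory luminal cells, which make the proteins of prostatic fluid, 7 of 9 members had both PCSp mice above both PSp mice, against 22.7% of all genes, and the median log2 fold change was 0.42. edgeR called 0 of 9, with 4 at an unadjusted p under 0.05 and 0.711% of all genes called, and DESeq2 called 0. Sqle had 18.04 and 18.6 CPM in PCSp cells, against 4.27 and 11.1 CPM in PSp cells. Its groups lay apart, with a log2 fold change of 0.96 ± 0.30 (edgeR adjusted p = 0.259), but the lowest value rested on 11 UMIs. Without PSp mouse 2 the log2 fold change of Sqle was 2.09 and edgeR called it at an adjusted p of 0.0262. Fdps had 57.1 and 53.6 CPM in PCSp cells, against 39.6 and 41.0 CPM in PSp cells, a log2 fold change of 0.43 ± 0.13 (edgeR adjusted p = 0.259). Acat2 had the reverse sign, at -0.13 ± 0.26. The interferon-high markers summed to 1999 and 1527 CPM in PCSp secretory luminal cells, against 2771 and 2610 CPM in PSp cells, and their part in the result was not tested. Sub-cluster 4 held most of the state in every mouse, and within it 6 of 9 members had both PCSp mice above both PSp mice and 1 had them below.

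In luminal progenitor cells 5 of 9 members had both PCSp mice above both PSp mice, against 23.1% of all genes, and the median log2 fold change was 0.28. edgeR called 0 of 9, with 4 at an unadjusted p under 0.05 and 0.486% of all genes called, and DESeq2 called 0. Sqle had 31.8 and 21.7 CPM in PCSp cells, against 14.5 and 13.6 CPM in PSp cells, a log2 fold change of 0.92 ± 0.20 (edgeR adjusted p = 0.141). Idi1 had 35.6 and 21.9 CPM in PCSp cells, against 15.3 and 16.2 CPM in PSp cells, a log2 fold change of 0.84 ± 0.22 (edgeR adjusted p = 0.289). For both genes PCSp mouse 1 was the highest and the PSp mice were nearly equal. PSp mouse 1 had 56 of these cells, and without it edgeR called Sqle at an adjusted p of 0.0270. The median was 0.72 without PSp mouse 2. The interferon-high markers summed to 1015 and 653 CPM in PCSp luminal progenitor cells, against 1704 and 1567 CPM in PSp cells, and their part in the result was not tested.

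In basal cells fewer members lay apart. Of the members 2 of 9, Hmgcs1 and Pmvk, had both PCSp mice above both PSp mice, against 23.5% of all genes. Hmgcs1 had 54.2 and 53.3 CPM in PCSp basal cells, against 41.5 and 34.1 CPM in PSp basal cells, a log2 fold change of 0.47 ± 0.12 (edgeR adjusted p = 0.548). The median of the members was 0.06, and it was 0.35 without PCSp mouse 1 and -0.24 without PCSp mouse 2. edgeR called 0 of 9, with 1 at an unadjusted p under 0.05 and 0.00749% of all genes called, and DESeq2 called 0. The basal sub-clusters differed in level and held unequal shares of the state. Sub-cluster 3 held 137 of 894 and 283 of 1005 cells in PCSp mice, against 217 of 683 and 106 of 473 cells in PSp mice. Within it 4 of 9 members had both PCSp mice above both PSp mice and 8 of 9 means were higher in PCSp mice, with sums of 244 and 323 CPM in PCSp mice, against 259 and 205 CPM in PSp mice. In sub-cluster 10 the sums were 144 and 162 CPM in PCSp mice, against 134 and 125 CPM in PSp mice, with 2 of 9 members apart. In sub-cluster 13 they were 153 and 175 CPM in PCSp mice, against 97.4 and 125 CPM in PSp mice, with 3 of 9 above and 1 below.

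Cycling cells had the reverse direction. All 9 members had a lower mean in PCSp mice, with a median log2 fold change of -0.37 and a range of -0.59 to -0.16. The median was -0.56 without PCSp mouse 2. The PCSp pair lay wholly below the PSp pair for 4 of 9, against 17.4% of all genes, and above for 0 of 9, against 17.8%. edgeR called 0 of 9 members, with 3 at an unadjusted p under 0.05, 0% of all genes were called, and DESeq2 called 0 members. Fdps had 162 and 195 CPM in PCSp cycling cells, against 294 and 217 CPM in PSp cycling cells, a log2 fold change of -0.51 ± 0.17 (edgeR adjusted p = 0.901). Hmgcs1 had 62.5 and 85.1 CPM in PCSp cells, against 101 and 104 CPM in PSp cells, a log2 fold change of -0.48 ± 0.18 (edgeR adjusted p = 0.901). Acat2 and Sqle were the other 2 that lay apart.

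Cycling cells were few, 70 and 88 in PCSp mice, against 98 and 97 in PSp mice. Their markers summed to 2661 and 2258 CPM in PCSp cells, against 1877 and 2207 CPM in PSp cells, so the marker sum was higher in the PCSp mice while the arm was lower. The interferon-high markers summed to 885 and 516 CPM in PCSp cells, against 899 and 990 CPM in PSp cells. Median depth was 26419.5 and 20713 UMIs in PCSp cells, against 41819.5 and 31497 in PSp cells. The part of these measures in the result was not tested. With each cell weighted equally, 2 of 9 members lay below, 1 lay above and 2 of 9 means were higher in PCSp mice.

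**Figure D4:**
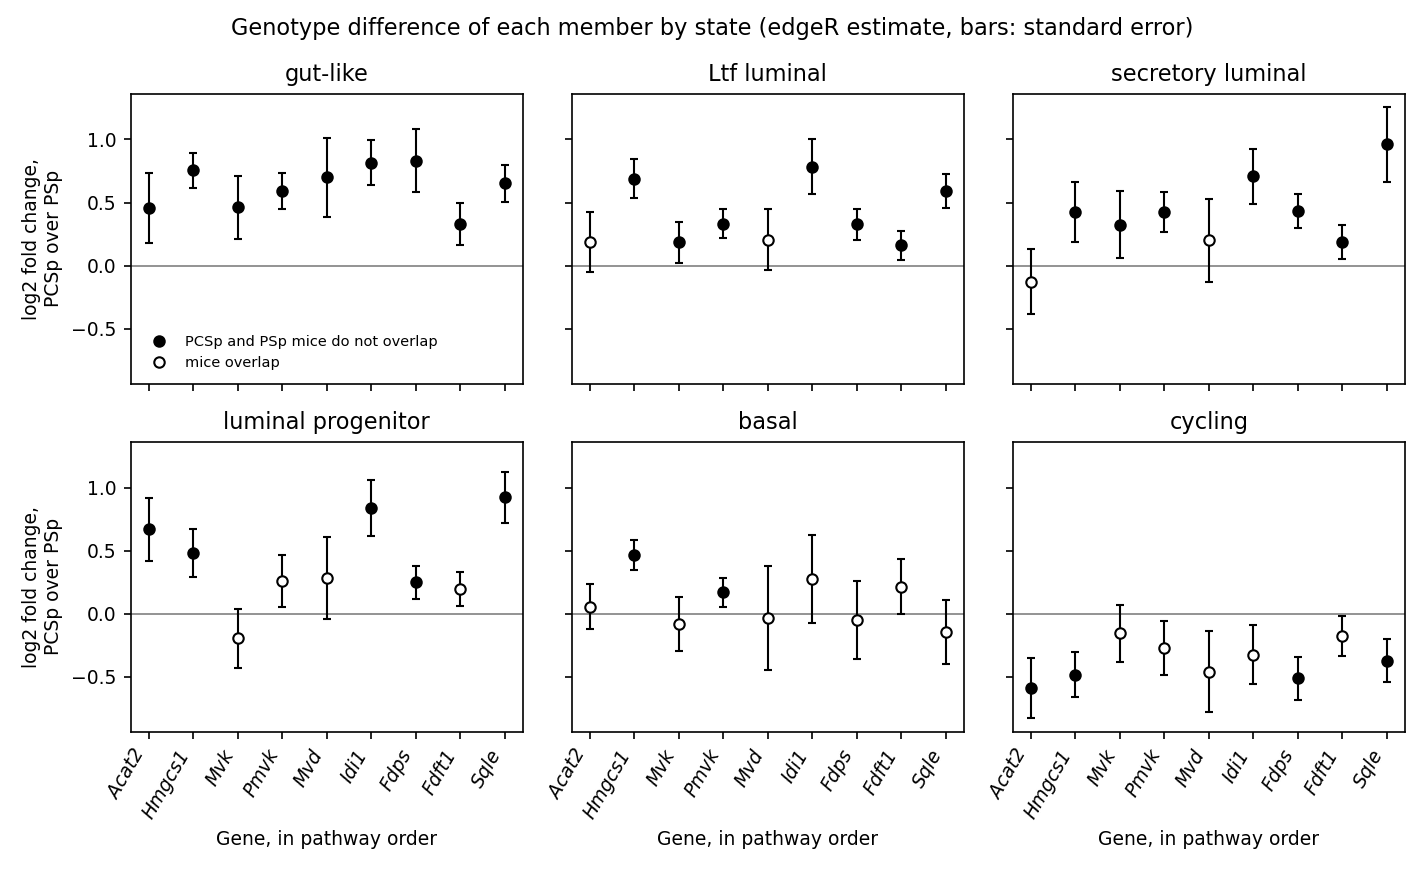
Log2 fold change of each member, PCSp over PSp, by epithelial-like state (edgeR estimate with standard error), genes in pathway order, filled points where the 2 PCSp mice and the 2 PSp mice do not overlap. Gut-like cells have a median of 0.65 and cycling cells a median of -0.37.

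The difference between states was tested with the interaction of state and genotype, cycling cells being the state of comparison. No member passed and 0% of all genes were called in each of the 5 comparisons, with 340 to 613 genes at an unadjusted p under 0.05. For Hmgcs1 the genotype effect in gut-like cells exceeded that in cycling cells by 1.27 ± 0.16 on the log2 scale (edgeR adjusted p = 0.654). In Ltf luminal cells it exceeded that in cycling cells by 1.21 ± 0.16 (edgeR adjusted p = 0.267). For Fdps the gut-like effect exceeded the cycling effect by 1.32 ± 0.22 (edgeR adjusted p = 0.940). These comparisons were chosen after the directions had been seen, and DESeq2 was not run on them.

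Outside the epithelium no member passed the test in any of the 6 cell types tested, and DESeq2 called 0 members in each. At an unadjusted p under 0.05 there was 1, Pmvk in endothelial cells, with 33.9 and 35.0 CPM in PCSp mice, against 17.9 and 25.4 CPM in PSp mice (log2 fold change 0.64 ± 0.27, edgeR adjusted p = 0.749). The share of all genes called was 0.345% in T and NK cells, 0.0593% in macrophages and monocytes, 0.11% in neutrophils, 0.0186% in smooth muscle cells and pericytes, and 0% in endothelial cells and fibroblasts. Both PCSp mice lay above both PSp mice for 4 of 9 members in macrophages and monocytes, against 22.3% of all genes, and for 2 of 9 in neutrophils, against 23.8%. The count was 2 of 9 in endothelial cells, against 18.8%, and 1 of 9 in fibroblasts, against 17.8%, in T and NK cells, against 24%, and in smooth muscle cells and pericytes, against 19.1%. The PCSp pair lay wholly below the PSp pair for 3 of 9 members in smooth muscle cells and pericytes, 2 of 9 in endothelial cells and 1 of 9 in neutrophils. In the same order, 756 of 5379, 1592 of 9259 and 1339 of 9083 genes tested lay below. The means of 9 of 9 members were higher in PCSp fibroblasts and of 8 of 9 in PCSp T and NK cells, with median log2 fold changes of 0.15 over the 8 members fitted and 0.21 over the 6 fitted. These counts take in members under the filter on low counts, such as Sqle in T and NK cells and Mvd in smooth muscle cells and pericytes, while the shares of all genes are over those that passed it. Low counts kept members out of these fits: 6 of 9 passed the filter in T and NK cells, 7 in endothelial cells, 8 in fibroblasts and in neutrophils, and 3 in smooth muscle cells and pericytes. B and plasma cells, with 21 to 75 cells per mouse, were not tested.

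The genotype effect in epithelial-like cells was set against that in each other cell type by the interaction of cell type and genotype, and no member passed. The share of all genes that passed was 0.399% against T and NK cells, 0.399% against endothelial cells, 0.0121% against fibroblasts, 0.128% against macrophages and monocytes, 0.412% against neutrophils and 0.169% against smooth muscle cells and pericytes. The smallest p of a member was that of Fdps against fibroblasts, with a difference of -0.73 ± 0.22 on the log2 scale, epithelial-like cells minus fibroblasts (edgeR adjusted p = 0.802).

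The neighbouring lists of the pathway were counted beside the members. Of the 11 genes of the sterol ring arm, which turns squalene epoxide into cholesterol, 9 were higher in PCSp gut-like cells and 2 lower, with a median log2 fold change of 0.46. In secretory luminal cells 11 of 11 were higher (median 0.27), in Ltf luminal cells 9 of 11 (median 0.24), and in cycling cells 8 of 11 were lower (median -0.29). The 14 genes of SREBP control and uptake had medians of -0.15 in gut-like cells and 0.04 in cycling cells, over 13 genes tested in each. The 14 genes of the isoprenoid branches, of which 13 were tested, had medians of -0.01 in both states, and the 6 genes of acetyl-CoA supply had 0.02 in gut-like cells. No gene of these lists passed the test in any cell type or state.

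In epithelial-like cells as a whole, genes of smallest p in each list were as follows, none of which passed edgeR's adjusted threshold. In the isoprenoid list Zmpste24, a protease of prenylated proteins, had a log2 fold change of 0.27 ± 0.08 (edgeR adjusted p = 0.561). In the ring arm Msmo1 and Sc5d, a sterol desaturase, had log2 fold changes of 0.24 ± 0.09 and 0.24 ± 0.12. In the control list Stard4, a sterol carrier, had a log2 fold change of -0.66 ± 0.25. In the supply list Acat1, the mitochondrial thiolase, had a log2 fold change of 0.12 ± 0.08.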

How the data were processed

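Per the labels, single-cell libraries were made from 4 castrated-mouse prostate tumours. The authors deposited UMI counts per gene and barcode, made with Cell Ranger 6.1.2 on mm10 per the submitters' processing notes. Counting of strand is not given in the sources used here.

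Cells with at least 300 genes, 500 UMIs and at most 20% mitochondrial UMIs were kept. Scrublet's automatic threshold marked 0% to 0.698% of cells, so the highest scores were left out at 0.8% per 1000 cells (237 to 572 cells per library). Cells were clustered without the members or the other pathway genes, on 2000 variable genes, 30 components and 15 neighbours (scanpy 1.11.5, Leiden resolution 1), and clusters took a name from at least 3 markers. Doublets that score low and free RNA may remain. Sums of counts for each mouse were compared in edgeR 4.0.16 (quasi-likelihood, TMM, filterByExpr, Benjamini-Hochberg over all genes tested, adjusted p under 0.05, two-sided) in R 4.3.3, for groups of at least 30 cells in every mouse. Interaction fits had the mouse as a term. DESeq2 1.42.0, another scaling, no filter on low counts, each mouse left out, stricter cell filters, another clustering, equal cell numbers per sub-cluster, no doublet removal and equal weight per cell were the alternatives. The fits were tested on simulated data.

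Named were all 9 members, Chd1, of the 2 genes of smallest p per pathway list those that can be given, and the 5 genes of most like pattern. Some items, an allele shared by both groups among them, are not reported here. Members and lists were chosen with earlier results of these data known. Libraries of the same genotype differed by more than sampling noise (chi-square divided by its degrees of freedom was 22.3 for the PCSp pair and 55.1 for the PSp pair). No label names litters or batches, so p-values measure the spread between these 4 mice.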

Additional observations from a re-analysis of the deposited data

How the results depend on the processing

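Under the alternatives other than leaving out a mouse, 273 log2 fold changes of single members kept their direction and their side of the threshold, and 14 kept their direction and passed the threshold. Mvd in epithelial-like cells reversed to -0.0020 under stricter cell filters. With no filter on low counts edgeR called 3 members in Ltf luminal, 5 in gut-like, 2 in luminal progenitor and 2 in secretory luminal cells. Over all genes that setting called 527, 479, 320 and 363 in these states, in that order, against 2, 43, 56 and 78 with the filter. DESeq2 called 1 member in Ltf luminal and 1 in gut-like cells, with 116 and 100 of all genes called. With no filter the median was 0.24 in neutrophils and -0.0368 in smooth muscle cells and pericytes, and DESeq2 gave 0.11 in neutrophils. With cells weighted equally the summed level was 224 CPM in epithelial-like cells and 97.2 CPM in macrophages and monocytes. The cause was not tested.

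Without 1 mouse in turn, the members' median log2 fold change ran from 0.37 to 0.77 in gut-like, 0.19 to 0.48 in Ltf luminal, 0.17 to 0.72 in luminal progenitor, 0.35 to 0.49 in secretory luminal, -0.56 to -0.25 in cycling, -0.24 to 0.35 in basal and -0.10 to 0.15 in epithelial-like cells. It ran from -0.0019 to 0.49 in T and NK cells, -0.33 to 0.0644 in endothelial cells, 0.11 to 0.54 in fibroblasts, -0.0166 to 0.21 in macrophages and monocytes, -0.0717 to 0.30 in neutrophils and -0.50 to 0.62 in smooth muscle cells and pericytes. The number of members called ran from 0 to 1 in Ltf luminal, gut-like, luminal progenitor and secretory luminal cells. In epithelial-like cells Mvk ran from -0.24 to 0.0206, Mvd from -0.16 to 0.17, Idi1 from -0.17 to 0.44, Fdps from -0.38 to 0.0538 and Fdft1 from -0.0449 to 0.22. In Ltf luminal cells Acat2 ran from -0.12 to 0.54 and Mvd from -0.0224 to 0.45. In basal cells Acat2 ran from -0.0284 to 0.15, Mvk from -0.35 to 0.14, Mvd from -0.71 to 0.43, Idi1 from -0.24 to 0.73, Fdps from -0.59 to 0.35, Fdft1 from -0.12 to 0.49 and Sqle from -0.48 to 0.17. In cycling cells Mvk ran from -0.31 to 0.0168, Pmvk from -0.62 to 0.0144 and Idi1 from -0.63 to 0.0621. In secretory luminal cells Acat2 ran from -0.21 to 0.0104. A group left with 1 mouse is assumed to vary like the other.

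No paired analysis was possible because the replicate numbers name mice in the order of their records and no label ties mice across genotypes. Acat2 in gut-like cells rests on 34 to 72 UMIs per mouse and Sqle in secretory luminal cells on 11 to 138, which limits their precision.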
